A study of Homo sapiens with 18 samples.

Results

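A set of 10 cytokine genes were followed across bladder cancer cells that carried WWOX, AP-2α or AP-2γ: the CXC chemokines CXCL1, CXCL2, CXCL3, CXCL6, CXCL8 and CXCL10, the CC chemokine CCL20, the interleukin-1 cytokines IL1A and IL1B, and IL6. They were the rows of the expression table whose Ensembl identifier carried these symbols, 10 of 16575 genes. Expression was measured by CAGE-seq, in which the capped 5′ ends of transcripts are sequenced and counted, so that a level, in CPM (the count of 5′ ends of a gene scaled to the library's total), needs no correction for transcript length. RT-112, HT-1376 and CAL-29, 3 established lines of urinary bladder carcinoma, were each transduced in 2 rounds with lentivirus, which gave 6 variants and 18 libraries. The first letter of a variant is K for the blank vector or W for WWOX, a putative tumour suppressor, selected with puromycin. The second letter is K for the blank vector, A for AP-2α or C for AP-2γ, transcription factors of the AP-2 family, selected with G418. All variants (KK, KA and KC without the WWOX vector, WK, WA and WC with it) thus received a first and a second vector. Both expression vectors are named for the CMV promoter, and the WWOX vector also encodes GFP. Each line and variant had 1 library, so n is 3 for a variant over the lines and 3 for each first vector within a line.

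Chemokines are small secreted proteins that attract leukocytes. CXCL6 and CXCL8 act on the receptors CXCR1 and CXCR2, CXCL1, CXCL2 and CXCL3 act mainly on CXCR2, and all of them draw neutrophils, CXCL10 is induced by interferon and draws T cells through CXCR3, and CCL20 draws cells that carry CCR6. IL1A and IL1B both bind IL1R1, whose signal passes through MYD88 and the IRAK kinases to NF-κB, a family of transcription factors, and NF-κB in turn switches on most of these chemokines, IL1A, IL1B and IL6. In carcinoma cells this loop is known as a source of inflammatory signals to the surrounding tissue.

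The libraries held 13357102 to 17958572 reads on genes, so that 3 reads, taken here as the floor of detection, were worth 0.158 to 0.213 CPM. The library labelled CAL-29_KC did not resemble its line. Over all genes its log2 levels had a median correlation of 0.959 with the HT-1376 libraries and of 0.841 with the other CAL-29 libraries, whereas those CAL-29 libraries had 0.948 to 0.96 with each other. It was left out of the tests, which therefore used 17 libraries, and its values are given apart. All 7 epithelial markers were in the table, with a summed level of 4695 to 25709 CPM in the 17 libraries. At the WWOX gene itself, the libraries labelled W held 18.5 to 22.3 CPM in RT-112 against 23.5 to 26.04 CPM in those labelled K, and 18.6 to 23.1 against 16.95 to 24.7 CPM in HT-1376. In CAL-29 they held 62.4 to 155 CPM against 51.3 and 63.7 CPM. The libraries labelled W thus had no higher WWOX level in RT-112 or HT-1376, where a transcript that starts in the vector need not be counted at the gene, and they are called by their labels below. TFAP2A, the gene of AP-2α, was at 46.8 CPM in the library labelled RT-112_KA against 18.01 CPM in KK, but at 25.3 CPM in the library labelled RT-112_WA, where TFAP2C, the gene of AP-2γ, was at 180 CPM, above the 143 CPM of RT-112_WC and the 56.2 CPM of WK. The target genes of the library labelled RT-112_WA thus went against its label, and values without it are given where they differ. In HT-1376 TFAP2A was at 100.66 CPM in KA against 69 CPM in KK, and at 69.9 CPM in WA against 76.9 CPM in WK, so it was not raised in the library labelled WA. TFAP2C in HT-1376 was at 158, 172 and 214 CPM in KK, KA and KC. It was lower with each second vector in WK, WA and WC, at 69, 98 and 163 CPM. For CAL-29 the TFAP2A levels were 49.9 CPM in KA against 35.4 CPM in KK and 86.7 CPM in WA against 61.7 CPM in WK. Within a line the 3 libraries labelled W came from 1 cell population that had received WWOX before the second vector. The p-values within a line measure only the spread left after additive effects of both vectors, shared over the lines. They do not measure the spread between separate WWOX transductions.

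The CXC chemokine genes lie on chromosome 4 (hg38). CXCL8 (ENSG00000169429, chr4:73740519-73743716, plus strand), CXCL6 (ENSG00000124875, chr4:73836640-73849064, plus strand), CXCL1 (ENSG00000163739, chr4:73869393-73871308, plus strand), CXCL3 (ENSG00000163734, chr4:74036589-74038807, minus strand) and CXCL2 (ENSG00000081041, chr4:74097040-74099196, minus strand) form a cluster of 358678 bp. CXCL10 (ENSG00000169245, chr4:76021118-76023497, minus strand) lies 1921921 bp beyond it. IL1A (ENSG00000115008, chr2:112773925-112784493, minus strand) and IL1B (ENSG00000125538, chr2:112829751-112836816, minus strand) are neighbours on chromosome 2, CCL20 (ENSG00000115009, chr2:227805739-227817564, plus strand) is on the same chromosome, and IL6 (ENSG00000136244, chr7:22725884-22732002, plus strand) is on chromosome 7. CXCL1, CXCL2 and CXCL3 are close copies of each other. Over the 75 nt of a read from the annotated 5′ end, CXCL1 and CXCL3 differed at 11 positions in their best alignment without gaps, and CXCL2 differed from CXCL1 at 27 positions and from CXCL3 at 31, and how reads that match more than 1 copy were counted is not given in the sources used here, so that counts may be exchanged between copies.

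The 5 clustered CXC genes and IL1B are shown from 150 bases before the RefSeq start (GRCh38.p14) to the base before it, 5′ to 3′ on the strand of the gene, because these genes changed together in the comparison of WWOX below. Capitals mark GGNNNTTCC on either strand, the letters of a κB-type motif, the kind of site NF-κB binds.
CXCL1 (chr4:73869243-73869392, plus strand): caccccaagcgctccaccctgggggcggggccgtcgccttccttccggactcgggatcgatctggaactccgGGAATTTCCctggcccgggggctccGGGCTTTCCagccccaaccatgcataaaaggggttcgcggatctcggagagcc
CXCL2 (chr4:74099196-74099345, minus strand): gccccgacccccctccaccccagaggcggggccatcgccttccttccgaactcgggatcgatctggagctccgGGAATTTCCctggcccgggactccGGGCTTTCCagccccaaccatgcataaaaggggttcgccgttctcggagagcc
CXCL3 (chr4:74038690-74038839, minus strand): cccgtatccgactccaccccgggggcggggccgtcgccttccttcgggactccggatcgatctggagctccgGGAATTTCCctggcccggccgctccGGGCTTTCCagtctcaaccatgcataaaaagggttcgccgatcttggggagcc
CXCL6 (chr4:73836528-73836677, plus strand): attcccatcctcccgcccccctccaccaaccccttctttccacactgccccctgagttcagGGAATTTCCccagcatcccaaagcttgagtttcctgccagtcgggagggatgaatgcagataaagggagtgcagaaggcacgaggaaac
CXCL8 (chr4:73740419-73740568, plus strand): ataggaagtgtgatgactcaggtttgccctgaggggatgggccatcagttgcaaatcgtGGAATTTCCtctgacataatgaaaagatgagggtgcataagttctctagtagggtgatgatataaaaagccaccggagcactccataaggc
IL1B (chr2:112836780-112836929, minus strand): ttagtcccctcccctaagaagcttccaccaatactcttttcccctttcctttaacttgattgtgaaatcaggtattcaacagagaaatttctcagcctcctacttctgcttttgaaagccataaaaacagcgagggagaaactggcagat
All 5 CXC promoters held the motif, and CXCL1, CXCL2 and CXCL3 had it at 2 places, the nearer one at positions -53 to -45 from the start. The farther match of each, and the single match of CXCL6 and CXCL8, was GGAATTTCC, which matches the motif on both strands, and these lay between positions -91 and -69. Over the full RefSeq window of 300 bases, which runs from position -250 to 50 bases past the start, the motif was found for 8 of the 10 genes, the exceptions being IL1A, which has 2 windows, and IL1B, against 20.1% of 35116 windows of all genes. The letters of an AP-1 site, TGANTCA, were found for CXCL8 and IL1A (7.71% of all windows), and those of an interferon-stimulated response element (GAAA, 2 bases of any kind, GAAA) for CXCL10 alone of the 10 genes (3.57% of all windows). The letters of an AP-2 site, GCCNNNGGC, were found for CXCL1 and CXCL2, in both at positions 11 to 19 (23.2% of all windows), and TATAAA for CXCL8, CCL20 and IL1A (11.5% of all windows). All motifs were searched on both strands, positions count the start itself as 0, and no κB-type match overlapped a match of another motif in these 10 genes. The matches describe letters in a window and do not show binding.

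**Figure D1:**
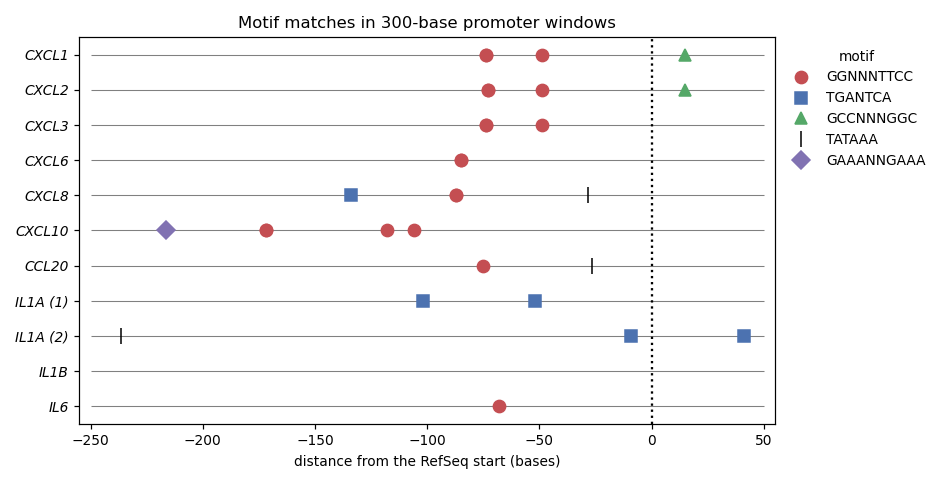
Matches of 5 motifs in the RefSeq promoter windows of the 10 genes; the x axis is the distance from the RefSeq start in bases, and each row is 1 window (IL1A has 2). The κB-type motif (circles) lies within 100 bases before the start in 7 genes and farther away in CXCL10.

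The CXC chemokines were low in RT-112 and higher in HT-1376 and CAL-29. CXCL1 stood at 0.00 to 0.24 CPM in the 6 RT-112 libraries, at 2.56 to 215 CPM with a median of 65.1 in the 6 HT-1376 libraries, and at 20.35 to 534 CPM with a median of 147 in the 5 CAL-29 libraries. RT-112 was at the floor, with 13 CXCL1 reads over all its libraries, while the ranges of HT-1376 and CAL-29 overlapped. CXCL2 had 2 reads in all of RT-112, 1.05 to 45.8 CPM in HT-1376 and 3.77 to 9.29 CPM in CAL-29. CXCL6 had 5 reads in all of RT-112, 0.00 to 5.37 CPM in HT-1376 and 3.36 to 100.1 CPM in CAL-29. These genes were thus close to silent in RT-112.

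CXCL3 and CXCL8 were the CXC genes with a measurable level in all 3 lines. CXCL3 was at 0.37 to 0.78 CPM in RT-112, at 2.10 to 46.1 CPM in HT-1376 and at 5.62 to 15.7 CPM in CAL-29. CXCL8, the main neutrophil attractant of the family, was at 2.59 to 5.56 CPM in RT-112, at 2.56 to 50.9 CPM in HT-1376 and at 8.46 to 91.8 CPM in CAL-29. For CXCL3 every RT-112 library was below every library of the other lines, whereas for CXCL8 the lowest HT-1376 library, KK, was below the lowest RT-112 library.

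Of the interleukin-1 genes IL1B differed less between the lines, and CCL20 ran the other way. IL1A was at 0.32 to 1.91 CPM in RT-112, at 1.12 to 23.65 CPM in HT-1376 and at 2.88 to 12.6 CPM in CAL-29. IL1B was at 1.10 to 5.76 CPM in RT-112, at 0.11 to 14.6 CPM in HT-1376 and at 3.33 to 8.43 CPM in CAL-29, so that all 3 ranges overlapped. CCL20 was at 1.66 to 5.10 CPM in RT-112, at 0.13 to 3.67 CPM in HT-1376 and at 0.00 to 1.22 CPM in CAL-29, and every RT-112 library was above every CAL-29 library.

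CXCL10 and IL6 were the rarest. CXCL10 was at 0.46 to 3.96 CPM in HT-1376 and at 0.05 to 0.16 CPM in RT-112, and 1 CAL-29 library, WK, exceeded the floor with 0.39 CPM. IL6 had no read among the 102567839 reads of RT-112, which allows a level of up to 0.0292 CPM, 0.00 to 0.77 CPM in HT-1376 and 0.38 to 2.35 CPM in CAL-29. CXCL10 was therefore mostly an HT-1376 transcript and IL6 mostly a CAL-29 transcript. In bulk RNA, fewer cells that express a gene and less RNA per cell cannot be told apart.

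**Figure D2:**
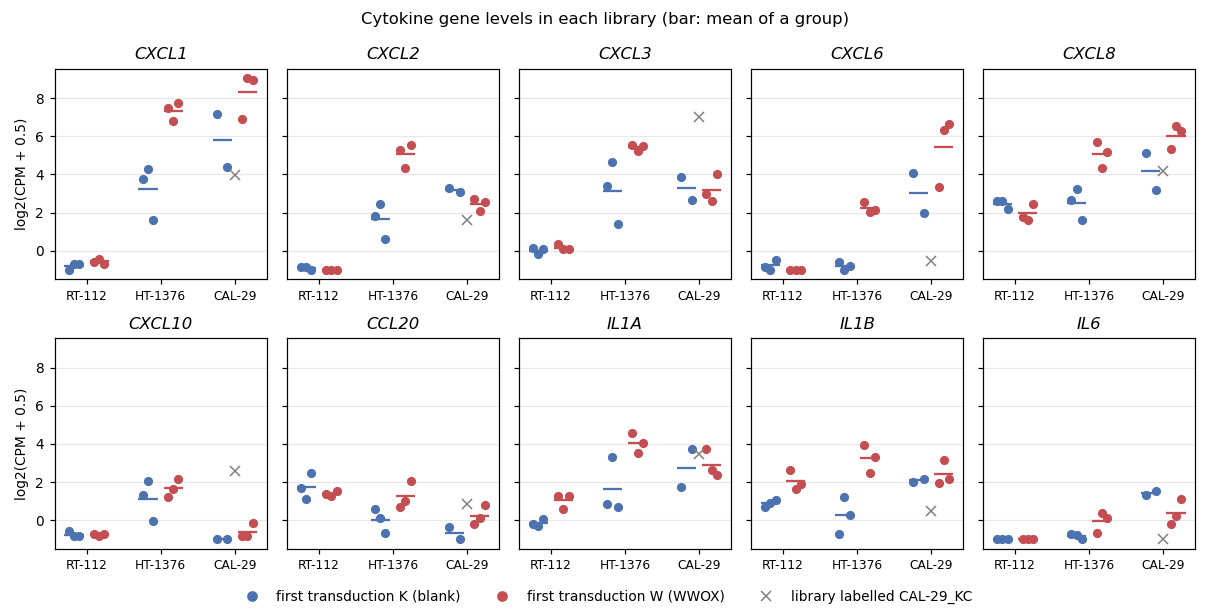
Level of the 10 genes in each library as log2(CPM + 0.5), by cell line on the x axis; blue points are libraries with the blank first vector, red points those labelled W, bars are group means, and the grey cross is the library labelled CAL-29_KC. CXCL1, CXCL2 and CXCL6 lie near the bottom in RT-112, and in HT-1376 the red points of CXCL1, from 111 CPM, lie above the blue ones, up to 18.9 CPM.

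Of the 10 genes, 8 passed the filter of at least 5 CPM in at least 1 of the 17 libraries, and limma was fitted to all 12991 genes that did. CXCL10 and IL6 did not pass. In a fit with the line, the first and the second vector as terms, 7 of the 8 genes differed between RT-112 and HT-1376, where 62.1% of all genes did, and 7 of 8 between RT-112 and CAL-29, where 72.5% did. Between HT-1376 and CAL-29 it was 3 of 8, where 60.8% did. Most genes of any kind thus differed between lines, and the count for HT-1376 against CAL-29 was a smaller share than that of all genes. CXCL1, CXCL2, CXCL3, CXCL6, CXCL8 and IL1A were lower in RT-112 than in either other line, with log2 differences from -1.58 (CXCL8 against HT-1376, SE 0.54, adjusted p = 0.0181) to -7.84 (CXCL1 against CAL-29, SE 0.73, adjusted p = 2.55e-07). CCL20 was higher in RT-112, by 0.94 (SE 0.37, adjusted p = 0.0388) against HT-1376 and by 1.80 (SE 0.40, adjusted p = 0.00078) against CAL-29. However, CCL20 reached the 5 CPM of the filter in RT-112_KK alone (5.1 CPM). It thus entered these tests only through the line where it was higher. CXCL1, CXCL2, CXCL3, CXCL6 and IL1A likewise reached 5 CPM in no RT-112 library, with at most 0.24, 0.05, 0.78, 0.22 and 1.91 CPM there. They entered only through the lines where they were higher. Without a filter CCL20 and these genes were also called between RT-112 and either other line. CXCL1, CXCL6 and CXCL8 were lower in HT-1376 than in CAL-29, by -1.86, -3.61 and -1.40 (adjusted p = 0.0385, 0.000337 and 0.0437). IL1B differed in no pair (adjusted p from 0.245 to 0.612).

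Levels of the lines were not on a common centre: the median log2 difference of all genes was -0.43 for RT-112 against HT-1376, -0.82 against CAL-29 and -0.45 for HT-1376 against CAL-29, and TMM scaling moved these to -0.10, -0.17 and -0.11. With TMM scaling CXCL6 and CXCL8 no longer differed between RT-112 and HT-1376 (adjusted p = 0.0511 and 0.0611), nor did CXCL1 and CXCL8 between HT-1376 and CAL-29 (adjusted p = 0.0956 and 0.133), where CXCL3 and CCL20 were then called. Without the library labelled RT-112_WA, CXCL6 and CXCL8 also lost the call between RT-112 and HT-1376 (adjusted p = 0.0942 and 0.0562). The log2 differences from RT-112 depend on the 0.5 CPM added before the logarithm where RT-112 was near the floor, and are not bounds on a fold.

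In HT-1376 the libraries labelled W held more of every one of these 8 transcripts than those labelled K. CXCL1 was at 2.56, 13.2 and 18.9 CPM in KK, KA and KC and at 215, 179 and 111 CPM in WK, WA and WC. The groups did not overlap, and the means were 11.5 ± 8.27 and 168 ± 52.7 CPM (SD, n = 3 each). The fitted log2 fold-change (log2FC) was 4.13 (SE 0.85, adjusted p = 0.021), or 17.5-fold on the log2(CPM + 0.5) scale.

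CXCL2 was at 1.05, 3.06 and 4.96 CPM in the K libraries, in the order KK, KA and KC, and at 45.8, 38.9 and 19.7 CPM in WK, WA and WC. It rose by a log2FC of 3.42 (SE 0.47, adjusted p = 0.00469), the smallest p of the 8 genes. CXCL3 was at 2.10, 9.82 and 24.5 CPM and at 45.4, 46.1 and 37.75 CPM in the same order. CXCL3 rose by 2.31 (SE 0.61, adjusted p = 0.046), with KC much nearer to the W libraries than KK was.

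CXCL6 had 1, 3 and 0 reads in KK, KA and KC and 67, 84 and 64 reads in WK, WA and WC, that is 3.84, 5.37 and 3.51 CPM. The K libraries were at or under the floor, and against the floor of 3 reads the level in WC was at least 16.5-fold higher than in KC. The log2FC of 3.02 (SE 0.77, adjusted p = 0.0421) depends on the added 0.5 CPM and is no bound. CXCL8 was at 2.56, 5.73 and 9.08 CPM in KK, KA and KC and at 35.7, 50.9 and 19.9 CPM in WK, WA and WC. CXCL8 rose by 2.57 (SE 0.59, adjusted p = 0.0301), with no overlap between the groups.

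Of the interleukin-1 cytokines, IL1B was at 0.72, 0.11 and 1.84 CPM in KK, KA and KC and at 9.58, 14.6 and 5.15 CPM in WK, WA and WC. IL1B rose by 2.98 (SE 0.54, adjusted p = 0.0132). IL1A was at 1.12, 1.31 and 9.57 CPM against 16.1, 23.65 and 11.1 CPM, so the KC library almost reached the WC library. Its log2FC of 2.43 (SE 0.73) did not pass (adjusted p = 0.0694). CCL20 was at 0.13, 1.02 and 0.57 CPM against 3.67, 1.09 and 1.53 CPM, with a log2FC of 1.24 (SE 0.50, adjusted p = 0.147).

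Thus 6 of the 8 genes rose in HT-1376 and none fell, where 9.71% of all genes were called and 4.69% were called and higher. All 8 had their 3 W libraries above their 3 K libraries, which was so for 12.9% of all genes. For CCL20 this rested on WA at 1.09 CPM (17 reads) above KA at 1.02 CPM (18 reads), a gap that these counts do not resolve. Each of the 8 also reached 5 CPM in a library of another line, so none had entered the test through the HT-1376 libraries labelled W alone. The median log2FC of the 8 genes was 2.77, and that of all genes was -0.13. The direction held under every alternative in which a gene was tested, 14 for each of the 8 but CCL20, which did not pass the filter in 2 of them. Because the W libraries all lay above the K libraries, leaving out a pair could not reverse the direction, so this is no separate support.

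The number of calls depended on single libraries. It was 3 without the K pair of the second vector, 1 without the A pair and 2 without the C pair, and 1 when the library labelled CAL-29_KC entered the fit, which leaves the log2FC of HT-1376 as it is but changes the shared spread and the genes tested. It was 3 (CXCL1, CXCL2 and IL1B) without the library labelled RT-112_WA, with the same log2FC, and CXCL3, CXCL6 and CXCL8 then had adjusted p = 0.0846, 0.0796 and 0.0596. Without the K pair the log2FC of CXCL1 was 3.12 (adjusted p = 0.0149), without the A pair 4.33 (adjusted p = 0.0541) and without the C pair 4.93 (adjusted p = 0.0715). The size also varied with the second vector: the ratio of W to K CPM was 84.0 for CXCL1 with the blank second vector, 13.6 with AP-2α and 5.90 with AP-2γ, and 43.6, 12.7 and 3.97 for CXCL2. With the blank second vector these ratios rest on 39 CXCL1 and 16 CXCL2 reads in KK. For CXCL3 the ratios were 21.6, 4.70 and 1.54, and for CXCL8 they were 13.9, 8.88 and 2.19. Other genes had another order: the ratios of IL1A were 14.4, 18.1 and 1.16, and CCL20 had 1.07 with AP-2α and 2.68 with AP-2γ. IL1B had 13.3 with the blank vector and 2.8 with AP-2γ, and the remaining ratios of IL1B and CCL20 are not given because the K library held 2 reads. With 1 library behind each value, the difference between second vectors has no replicate check.

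**Figure D3:**
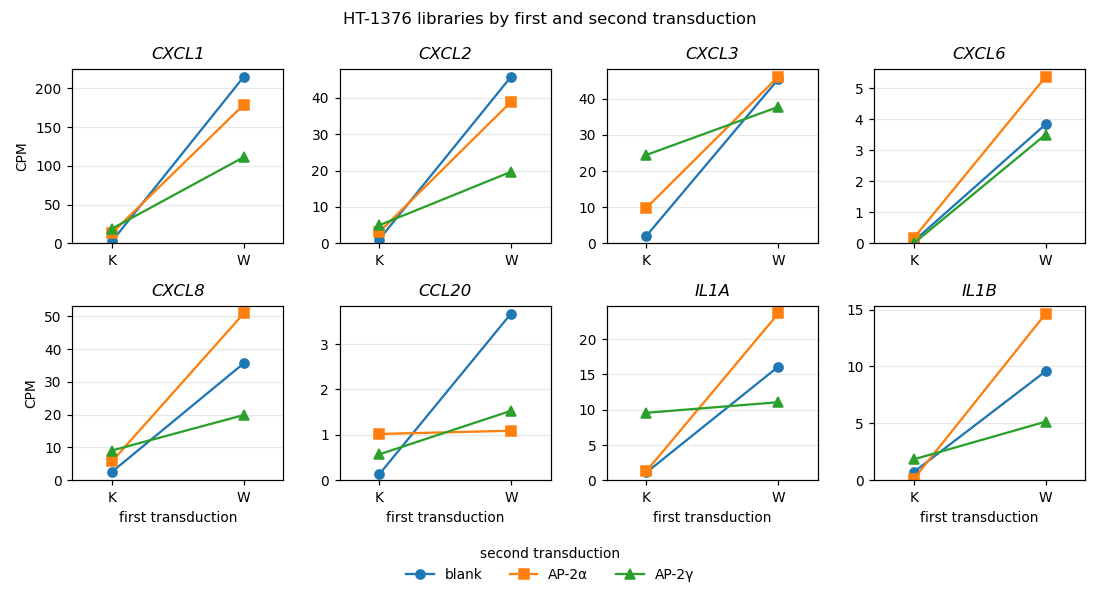
CPM of the 8 tested genes in the 6 HT-1376 libraries, with the first vector on the x axis and a line for each second vector (blank, AP-2α, AP-2γ). All lines rise from K to W; for CXCL1, CXCL2 and CXCL3 the K library with AP-2γ is the highest and the W library with AP-2γ the lowest.

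In RT-112 these genes stayed low in every library, and none of the 8 was called (limma, 0 of 8 at an unadjusted p under 0.05, and 0 by limma-voom, edgeR and DESeq2), as were 0% of all genes. CXCL8 was at 4.10, 5.52 and 5.56 CPM in KK, KA and KC and at 5.01, 2.91 and 2.59 CPM in WK, WA and WC, with a log2FC of -0.51 (SE 0.59). The interleukin-1 genes were those with separate groups. IL1B was at 1.55, 1.10 and 1.39 CPM in KK, KA and KC and at 3.27, 5.76 and 2.59 CPM in WK, WA and WC, with a log2FC of 1.19 (SE 0.54, adjusted p = 0.649). IL1A was at 0.55, 0.37 and 0.32 CPM against 1.91, 1.90 and 1.02 CPM, with a log2FC of 1.18 (SE 0.73, adjusted p = 0.757). That 2 of 8 genes had all W libraries above all K libraries compares with 9.49% of all genes.

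In CAL-29, where 3 libraries labelled W met 2 labelled K, the CXC genes split. WC was the only library labelled C used in this line, so the fit gave it its own term. The WWOX log2FC and p-values of CAL-29 thus rest on WK and WA against KK and KA, and the WC values are given beside them. CXCL1 was at 20.35 and 147 CPM in KK and KA and at 497, 120.3 and 534 CPM in WK, WA and WC. CXCL6 was at 3.36 and 16.4 CPM in KK and KA and at 100.1, 9.60 and 79.4 CPM in WK, WA and WC. For both genes WA lay below KA while WK and WC were the highest libraries of the series.

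CXCL8 was at 8.46 and 35 CPM in KK and KA and at 76.5, 40.0 and 91.8 CPM in WK, WA and WC, without overlap. The log2FC were 2.15 (SE 1.04, adjusted p = 0.437) for CXCL1, 1.98 (SE 0.95, adjusted p = 0.431) for CXCL6 and 1.65 (SE 0.72, adjusted p = 0.386) for CXCL8. CXCL2 went the other way, at 7.85 and 9.29 CPM in KK and KA against 5.41, 6 and 3.77 CPM in WK, WA and WC (log2FC of -0.54, SE 0.57, adjusted p = 0.777), and CXCL3 was at 5.89 and 13.9 against 15.7, 7.25 and 5.62 CPM.

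None of the 8 genes was called in CAL-29 by limma (1 at an unadjusted p under 0.05, and 0 by limma-voom, edgeR and DESeq2), where 0.724% of all genes were. CXCL8 and CCL20 had all W libraries above all K libraries, 2 of 8 genes against 9.01% of all genes. The size in CAL-29 rested on the K pair of the second vector. Without KK and WK the log2FC of CXCL1 was -0.29 (adjusted p = 0.742) and that of CXCL6 -0.74 (adjusted p = 0.199), whereas without KA and WA it was 4.58 (adjusted p = 0.11) and 4.70 (adjusted p = 0.0232).

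**Figure D4:**
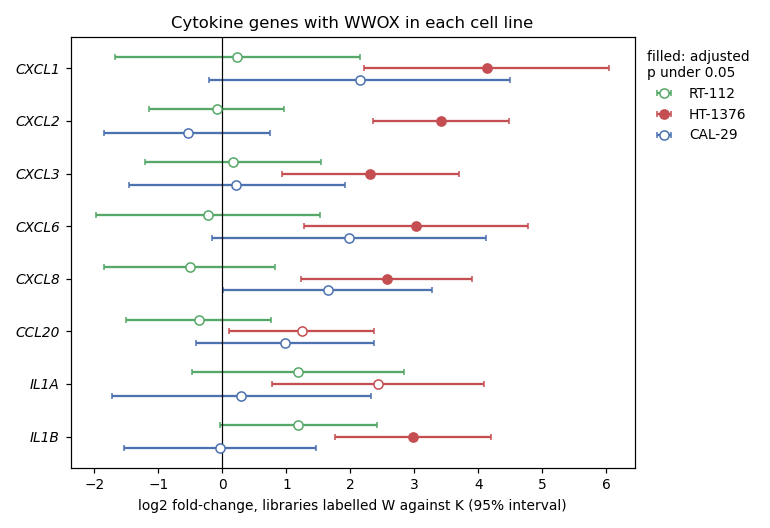
Log2 fold-change of the libraries labelled W against K within each line for the 8 tested genes, with 95% intervals from limma; filled points passed an adjusted p of 0.05. The 6 filled points are all of HT-1376, from 2.31 for CXCL3 to 4.13 for CXCL1.

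The difference of the WWOX log2FC between lines was tested itself. It was called for CXCL2 only of the 8 genes by limma, both for HT-1376 against RT-112 (3.51, SE 0.66, adjusted p = 0.0457; 1.32% of all genes were called) and for HT-1376 against CAL-29 (3.96, SE 0.74, adjusted p = 0.0268; 4.65% of all genes). The CXCL2 fold-change was positive in HT-1376, and below 0 in the other lines without a call there. In RT-112 CXCL2 had 2 reads in all, so a change in that line was not detectable at this depth and the difference from RT-112 is close to the HT-1376 value itself. That difference was called under 7 of 14 alternatives and not by limma-voom or edgeR (adjusted p = 0.118 and 0.309). With the library labelled CAL-29_KC in the fit neither difference was called (adjusted p = 0.206 and 0.0808), nor without the library labelled RT-112_WA (adjusted p = 0.219 and 0.0653). Without the A pair of the second vector they had adjusted p = 0.205 and 0.183, and without the K or the C pair the difference from RT-112 had 0.0993 and 0.0686. For CAL-29 against RT-112 no gene of the 8 was called (limma, 1 at an unadjusted p under 0.05, 0 by the count-based tests; 0.0539% of all genes). Between HT-1376 and RT-112, 7 of the 8 genes had an unadjusted p under 0.05, among them CXCL1 (3.89, interval 1.19 to 6.6, adjusted p = 0.143) and CXCL8 (3.08, interval 1.19 to 4.96, adjusted p = 0.106), and DESeq2 called 3 (CXCL2, CXCL6 and CXCL8). RT-112 held 13 CXCL1 and 5 CXCL6 reads in all. For these 2 genes too, the difference from RT-112 is thus close to the HT-1376 value itself. Between HT-1376 and CAL-29 the interval ran from -1.04 to 5.01 for CXCL1 and from -1.19 to 3.03 for CXCL8, so a difference between these lines was not shown for either gene.

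Over all lines together, with the line as a term, the 8 genes had positive log2FC for WWOX, from 0.59 for CCL20 to 2.23 for CXCL1 (SE 0.59, adjusted p = 0.249). None was called by limma, as were 0% of all genes; 5 of the 8 had an unadjusted p under 0.05, and edgeR called 0, limma-voom 1 (CXCL1) and DESeq2 2 (CXCL1 and IL1B). IL1B had the smallest adjusted p (1.58, SE 0.40, adjusted p = 0.237). Without HT-1376 the log2FC of CXCL2 was -0.34 in place of 1.01. When each variant was compared with KK, with the 3 lines as replicates and no term for the line, 0 of 8 genes were called in WK, KA, KC, WA or WC, as were 0% of all genes in each (limma, 0 of 8 at an unadjusted p under 0.05; 0 by limma-voom, edgeR and DESeq2). All 8 log2FC were positive in WK/KK, from 1.06 for IL1A to 3.57 for CXCL1, where the SE of CXCL1 was 3.12 because the lines differed so much in level. These comparisons share the KK libraries.

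AP-2α and AP-2γ gave no call among the 8 genes. Over all lines the log2FC of AP-2α ran from -0.23 (CCL20) to 0.42 (CXCL1) and that of AP-2γ from -0.38 (CCL20) to 0.68 (CXCL1), with 0% of all genes called for either. Within the lines, AP-2α called 0.0077% of all genes for RT-112 and 0% for each of HT-1376 and CAL-29, while AP-2γ called 0.0385% for RT-112, 0.0385% for HT-1376 and 2.45% for CAL-29, the last from the WC library alone. None of the 8 genes passed an unadjusted p of 0.05 in these fits, and none was called by limma-voom, edgeR or DESeq2. The largest within HT-1376 was CXCL3 with AP-2γ, at 1.5 (SE 0.75). These fits take the second vector from the labels, with the library labelled RT-112_WA, whose target genes went against its label, among those labelled AP-2α. Without it the counts for the 8 genes were also 0. TFAP2C stood at 143 to 339 CPM in the 5 libraries labelled C used here and at 49.4 to 180 CPM in the other 12, ranges that overlapped.

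The library labelled CAL-29_KC differed from the other CAL-29 libraries in these genes as well. It held 129 CPM of CXCL3, the highest of all 18 libraries, where HT-1376 libraries reached 46.1 CPM and CAL-29 libraries 15.7 CPM. It held 15.1 CPM of CXCL1, 2.50 of CXCL2, 17.6 of CXCL8, 10.6 of IL1A, 0.89 of IL1B and 1.31 of CCL20. Its CXCL10 level of 5.48 CPM was the highest of the series, while CXCL6 was at 0.18 CPM and IL6 at 0.00 CPM, unlike the other CAL-29 libraries.

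CXCL10 and IL6 were examined without a test of the filtered table. CXCL10 in HT-1376 was at 0.46, 1.99 and 3.69 CPM in KK, KA and KC and at 3.96, 1.85 and 2.57 CPM in WK, WA and WC, so the groups overlapped. In the fit without a filter its log2FC for WWOX in HT-1376 was 0.56 (SE 0.43, adjusted p = 0.446). IL6 in HT-1376 had 0, 2 and 1 reads in KK, KA and KC and 10, 2 and 14 reads in WK, WA and WC. In CAL-29 IL6 was at 2.35 and 1.99 CPM in KK and KA and at 1.66, 0.38 and 0.67 CPM in WK, WA and WC, without overlap and in the opposite direction to HT-1376. Of the genes that passed the filter, 9.78% had all W libraries below all K libraries in CAL-29. The unfiltered fit gave log2FC of 0.77 (SE 0.26, adjusted p = 0.0998) in HT-1376 and -0.95 (SE 0.32, adjusted p = 0.241) in CAL-29, and their difference of 1.72 (SE 0.41) had an adjusted p of 0.0488. That fit called 828 genes of any kind for this difference. In HT-1376 the IL6 reads of KK, KA, KC and WA were under the floor of 3 reads. The log2FC there and the difference thus depend on the added 0.5 CPM.

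Genes around these cytokines were read from fixed lists in HT-1376, beside the median of -0.13 of all genes, of which 9.71% were called and 4.69% called and higher. Of 8 other chemokines, 1 rose (CCL28, 1.24, SE 0.33, adjusted p = 0.0486) and none fell, with a median log2FC of 1.26, and limma-voom called 0, edgeR 1 and DESeq2 3. A count of 1 in 8 is near the share of all genes. The largest value was that of CXCL5, another ligand of CXCR2, at 2.13 (SE 0.83, adjusted p = 0.135). None of 6 cytokine receptor genes was called (1 at an unadjusted p under 0.05; 0 by limma-voom, edgeR and DESeq2). IL1R2, a decoy receptor for interleukin-1, had the largest value (2.34, SE 0.68, adjusted p = 0.0623), and IL1R1 was at -0.79 (SE 0.40, adjusted p = 0.234). Of 7 genes of the interleukin-1 family and its processing, PYCARD, an inflammasome adaptor, rose by 2.02 (SE 0.35, adjusted p = 0.0109), and the median was -0.03.

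Of 17 genes of signalling to NF-κB, 2 rose, IRAK2 by 2.36 (SE 0.38, adjusted p = 0.00909) and MYD88, the adaptor of the interleukin-1 receptor, by 0.92 (SE 0.16, adjusted p = 0.0117), a count near the share of all genes, and the median was -0.06. Of 15 other NF-κB target genes, 4 rose and 1 fell, with a median of 1.00, and limma-voom called 3, edgeR 4 and DESeq2 8. LIF rose by 3.16 (SE 0.55, adjusted p = 0.0113) and CSF2 by 2.89 (SE 0.66, adjusted p = 0.0296), both secreted cytokines. TNFAIP2 rose by 1.77 (adjusted p = 0.00952) and TNIP1 by 1.01 (adjusted p = 0.0464), and NFKBIZ fell by 0.96 (adjusted p = 0.0254). In CAL-29 NFKBIZ had a log2FC of 1.42 (SE 0.26, adjusted p = 0.0498), just under the threshold, and the difference between HT-1376 and CAL-29 was -2.38 (SE 0.33, adjusted p = 0.012). It was the only called gene of this list in CAL-29, where 0.724% of all genes were called. There limma-voom called 1 gene of the list, edgeR 0 and DESeq2 2. Of 11 interferon-γ genes none was called (3 at an unadjusted p under 0.05; 0 by limma-voom and edgeR, 1 by DESeq2), and the median was 0.10. The called genes of these lists other than the largest and smallest of a list were named after their values were seen.

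Markers of other cells moved with the same libraries. Of the immune markers, 3 of 8 were in the table, summing to 3.2 to 5.7 CPM in the K libraries of HT-1376 and to 11.4 to 24.4 CPM in those labelled W, with CD68 called (2.05, SE 0.41, adjusted p = 0.0182) and CD14 at 0.00 to 0.38 CPM. Of the fibroblast markers, 4 of 6 were in the table, summing to 5.3 to 12.6 and to 36.6 to 59.6 CPM, with COL1A2 (3.14, SE 0.22, adjusted p = 0.000603) and COL1A1 (1.77, SE 0.39, adjusted p = 0.0252) called and LUM at 0.00 to 0.22 CPM. The 1 endothelial marker of 4 in the table, CDH5, was at 2.1 to 4.1 and at 0.2 to 0.7 CPM. The 7 epithelial markers summed to 12613 to 14412 and to 9372 to 10610 CPM, with KRT19 called (2.67, SE 0.51, adjusted p = 0.0169). Most epithelial markers went the other way from KRT19: the median log2FC of the list was -0.47, and 2 of the 7 values were positive. The lowest was KRT18 (-0.61, SE 0.19, adjusted p = 0.0799). The part of these markers in the cytokine values was not tested.

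**Figure D5:**
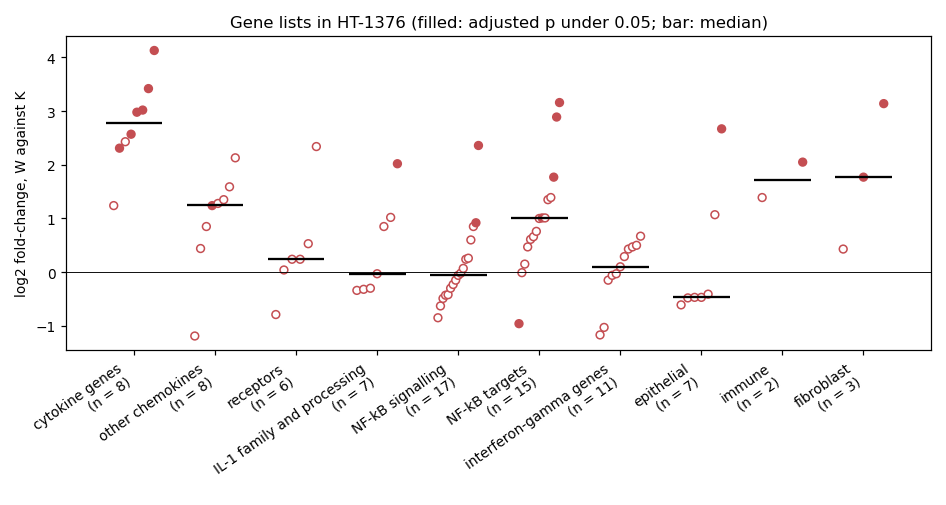
Log2 fold-change of the libraries labelled W against K in HT-1376 for the 8 tested cytokine genes and 9 gene lists on the x axis; points are genes, filled where the adjusted p was under 0.05, and bars are medians. The cytokine genes have a median of 2.77, and 4 of the 15 NF-κB targets are filled above 0 and 1 below it.

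The genes with the most similar profiles were sought by Pearson's r of log2(CPM + 0.5) over the 17 libraries after the mean of each line was subtracted, for the 3 cytokine genes with the highest mean level (CXCL1, CXCL8 and CXCL6) and for CXCL10. PRSS3, a trypsinogen gene, was closest to CXCL1 (r = 0.968, Spearman's rho = 0.959) and to CXCL8 (r = 0.931), and was among the 3 closest to CXCL6 (r = 0.921), although it reached only 18.2 CPM. EFHD2 (r = 0.943) and FOXQ1 (r = 0.938) followed for CXCL1, SLC39A2 (r = 0.916) and H2BP1 (r = 0.893) for CXCL8, and SLC39A2 (r = 0.942) and HMSD (r = 0.929) led for CXCL6. For CXCL10 the closest were CSTA (r = 0.885), SERPINA1 (r = 0.873) and ITM2C (r = 0.862). Without the 2 libraries farthest from the median, r for these 3 genes was 0.659, 0.7 and 0.684, so those values rested partly on 2 libraries, whereas PRSS3 and CXCL1 remained at 0.972. The 17 points share 3 lines and the transduced populations within them, and were read as a description.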

How the data were processed

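CAGE libraries were made from total RNA of 18 cell cultures (3 lines, 6 variants) and sequenced as 75 nt single-end reads. Per the paper's methods the authors aligned reads to hg38 with BWA, aligned the rest with HISAT2 2.0.5 (version per the labels), clustered tags with Paraclu and removed clusters that were not reproducible. The deposited values are CPM, 1 per gene and library; the annotation and the rule from clusters to genes are not given in the sources used here. Groups came from the sample labels. Between 99.96% and 99.99% of a library's values were whole multiples of 1 read within 0.0051 CPM, and the recovered reads served the count-based tests; on them edgeR called 1135 genes for WWOX in HT-1376, where limma called 1262. Symbols were matched for 16553 of 16575 genes (GENCODE 44).

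Genes that reached 5 CPM in any of 17 libraries (at least 1) were fitted with limma 3.58.1 (R 4.3.3) on log2(CPM + 0.5) with trended empirical Bayes, two-sided, Benjamini-Hochberg adjusted over all 12991 genes and called under 0.05: variants against KK without a block; line, WWOX and AP-2 as additive terms; and WWOX and AP-2 within each line. Alternatives were limma-voom, edgeR 4.0.16, DESeq2 1.42.0, TMM scaling, other pseudocounts and filters, all 18 libraries, and fits with libraries left out (that without the library labelled RT-112_WA was added after the data were seen). Variants share their line by design: deviations from the variant means correlated at 0.663 to 0.915 within a line. No library was a copy of another with the same line label (smallest chi-square per degree of freedom 20.4). Libraries with different line labels, such as that labelled CAL-29_KC and those of HT-1376, were not compared in this way. The fits were tested on simulated counts. Intervals are limma's, from the spread between libraries that is left after the terms of a fit, and the 3-read floor covers counting error only. The 10 genes, the lists and the rules for named genes (all 10 genes; the largest and smallest of a list; the 3 closest profiles) were chosen with earlier results of these data known. Sequences are from RefSeq.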

Additional observations from a re-analysis of the deposited data

Results flagged for a closer look

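The WWOX fold-change of CXCL2 differed between lines by a test of the difference itself, by 3.51 on the log2 scale between HT-1376 and RT-112 and by 3.96 between HT-1376 and CAL-29. RT-112 held 2 CXCL2 reads in all, so the first value is close to the HT-1376 change itself, and it was called under 7 of 14 alternatives, against 11 of 14 for the second. The library labelled CAL-29_KC, which was left out of the fits except in 1 alternative, held 129.13 CPM of CXCL3 and 5.48 CPM of CXCL10, both above every library with the blank first vector. Among 27 groups of 5 or 6 libraries of a line, 4 had 1 library far from the others by Dixon's criterion. Its rate of about 1 in 20 by chance holds for like replicates with a normal spread. The libraries of a line carried different vectors, so the count cannot be set against that rate. The 4 were CXCL6 in RT-112_KK at 0.22 CPM, which is 4 reads, CXCL10 in CAL-29_WK at 0.39 CPM, IL1B in CAL-29_WC at 8.43 CPM and CCL20 in RT-112_KK at 5.1 CPM.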

How the results depend on the processing

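Of 305 counts of called genes under an alternative, over 23 comparisons, 283 stayed within 1.5 times the value given above. Most of these comparisons had a count of 0 to begin with, and a 0 that stayed 0 is included. The share thus says little about the comparisons that had calls. For WWOX in HT-1376 (6 of 8) the count was 1 with all 18 libraries and 1 to 3 when a pair sharing the second vector was left out, which also leaves fewer samples; without the library labelled RT-112_WA, an alternative added after the data were seen, it was 3, and both differences of the WWOX effect below then had 0; under the other alternatives it was 5 to 7. For WWOX in CAL-29 (0) it was 0 to 1 with pairs left out. For WWOX over all lines (0) limma-voom gave 1 and DESeq2 2. For the difference between HT-1376 and RT-112 (1) it was 0 with all 18 libraries, 0 by limma-voom, 0 by edgeR, 3 by DESeq2, and 0 to 1 with pairs left out. For HT-1376 against CAL-29 in the WWOX effect (1) it was 2 without a filter, 0 with all 18 libraries, 3 by DESeq2, and 0 to 3 with pairs left out. For the levels of HT-1376 against CAL-29 (3) it was 5 without a filter, because CXCL10 and IL6 were then tested. Of 475 values of single genes, 53 lost their call, 7 gained one and 3 changed sign: CXCL1 (-0.29) and CXCL6 (-0.74) for WWOX in CAL-29 without the K pair (4.58 and 4.7 without the A pair), and CXCL2 over all lines without HT-1376 (-0.34, against 1.66 without either other line). The cause of these shifts was not tested. The line as a replicate block gave 0 calls among the 8 genes for each variant against KK, as did edgeR with this block, an alternative added after the data were seen, and leaving out the block in the additive fit gave 0. All-gene counts for WWOX in HT-1376 were 1262 (609 higher) as reported, 141 with all 18 libraries, 608 without the library labelled RT-112_WA, 402 to 644 with pairs left out and 1793 (1128 higher) by DESeq2. Without the library labelled RT-112_WA they were 21 in place of 94 for WWOX and 10 in place of 318 for AP-2γ in CAL-29, and 0 in place of 171 and 90 in place of 604 for the WWOX effect of HT-1376 against RT-112 and CAL-29. Genes under 3 reads in a library were below what this depth resolves.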
